A study of Mus musculus with 56 samples.

Results

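Defb1, the gene of mouse β-defensin 1, was followed across 56 two-channel arrays of mouse keratinocytes with and without transforming growth factor β1 (TGF-β1). It was the gene that a single probe of the 9596 on the array was annotated to, and it was 1 of 6795 named genes. Defb1 was chosen by its log2 ratios on these same arrays, over cell type, time and Smad3 genotype, so its log2 ratios are given as a description, with no test. Tests appear only for other genes.

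Ha-ras keratinocytes of strain Balb/c, called ras keratinocytes here, were exposed to 1 ng/ml TGF-β1 for 1, 6, 24 or 48 hours. Balb/c primary keratinocytes received the same dose for the same times. Both were isolated from newborn mouse skin, and the ras cells had in addition been transduced in culture with a replication-defective retrovirus that carries Ha-ras. Each array compared treated cells with untreated cells of the same kind. A further 6 arrays of strain C57B1/SVJ compared cells after 48 hours of TGF-β1 with untreated cells, in Smad3-/- ras, Smad3+/+ ras, Smad3-/- primary and Smad3+/+ primary keratinocytes. All C57B1/SVJ arrays thus differed from the Balb/c arrays in strain, and every ras group carried the virus in its treated and its untreated RNA. The labels give no number of animals or cultures.

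β-Defensins are small cationic peptides that epithelia secrete and that damage bacterial and fungal membranes. Mouse β-defensin 1 is the relative of human β-defensin 1, which many epithelia make without a prior infection. In human epidermis β-defensin 1 is made by keratinocytes of the living layers, and the reduced form of the human peptide, opened by thioredoxin, is the more active one. TGF-β1 binds a receptor kinase that phosphorylates the transcription factors Smad2 and Smad3, and it stops keratinocyte growth. RefSeq (GRCm38.p6) places Defb1 on mouse chromosome 8, beside the α-defensin genes.

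Each value is a log2 ratio of treated over untreated RNA, with the median of all probes of that array subtracted. A value of 0 means that the probe had the ratio of the array's median probe. The arrays give ratios and no levels, so the amount of Defb1 RNA in untreated ras cells could not be set against that in untreated primary cells. In RNA from whole cultures, fewer cells that make Defb1 and less Defb1 RNA per cell cannot be told apart. On 49 arrays the treated RNA was labelled with Cy5, and these carry the values below. The other 7 arrays had the dyes reversed and are described separately. Array medians before centring ran from -0.146 to 0.02, and the standard deviation over probes ran from 0.194 to 1.81, so arrays differed widely in spread. The direction of the ratios is likely treated over untreated: the early TGF-β target genes Skil and Smad7 averaged 1.34 and 1.16 on the ras arrays at 1 h, above 0 on 6 of 6 arrays each (limma adjusted p = 0.00237 and 0.0173, where 0.0786% of features passed). The Skil call was lost without replicate 2, and the Smad7 call without any 1 of replicates 2, 4, 5 and 6.

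At 1 h the Defb1 ratio lay on both sides of 0 in each kind of cell. The ras arrays gave -0.38, 0.46, -0.18, 0.62, -0.04 and 0.11, and the primary arrays -0.27, -0.10, -0.85, 0.03, 0.45 and -0.04. The groups overlapped almost entirely. The means were 0.10 ± 0.38 in ras and -0.13 ± 0.43 in primary keratinocytes (SD, n = 6 each). At this time 67.9% of the 8905 features (genes, or probes with no single gene) had a lower mean than Defb1 in ras and 26.4% in primary keratinocytes.

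At 6 h the mean had gone below 0, but the arrays still spanned it. In ras keratinocytes the 7 arrays ran from -1.25 to 0.28 with a median of -0.59, and 6 of the 7 were below 0. In primary keratinocytes the 7 arrays ran from -1.33 to 0.53 with a median of -0.34, and 5 of the 7 were below 0. The means were -0.59 ± 0.53 in ras, equal to 1.5-fold lower in treated cells, and -0.31 ± 0.61 in primary keratinocytes, equal to 1.24-fold lower (SD, n = 7 each). Defb1 had the 262nd lowest mean of the 8905 features in ras keratinocytes and the 964th lowest in primary keratinocytes.

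At 24 h every array of the Cy5 orientation lay below 0. The 6 ras arrays gave -1.64, -1.32, -1.19, -1.0, -1.05 and -3.06, and the 6 primary arrays gave -1.85, -0.87, -2.26, -0.61, -1.22 and -1.52. Apart from the ras array at -3.06, the ras arrays lay between -1.64 and -1.0, inside the primary range of -2.26 to -0.61. The ras mean was -1.54 ± 0.78, a 2.91-fold lower ratio, and the primary mean was -1.39 ± 0.62, a 2.62-fold lower ratio (SD, n = 6 each). Without the array at -3.06 the ras mean was -1.24. The place among all features differed between the cell types more than the means did. Defb1 had the 277th lowest mean of 8905 in ras keratinocytes, where 3.1% of features were lower, and the 26th lowest in primary keratinocytes, where 0.281% were lower. The 5th percentile of all features was -1.03 in ras and -0.45 in primary keratinocytes at this time, so means were spread more widely in ras. Single ras arrays were also wider: replicates 1 and 3 had an SD over features of 1.81 and 1.19. The primary arrays at 24 h ran from 0.264 to 0.835. How much of the wider ras spread came from these arrays was not tested.

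At 48 h the 2 kinds of cell stood apart. The 4 ras arrays gave -2.33, 0.18, -1.96 and -0.90, and the 3 primary arrays gave -2.02, -4.90 and -3.09. One ras array was above 0, while all 3 primary arrays were below -2. The ranges overlapped through a single ras array, replicate 1, which was lower than the highest primary array. The ras mean was -1.25 ± 1.13 (SD, n = 4), a 2.39-fold lower ratio, and the primary mean was -3.34 ± 1.45 (SD, n = 3), a 10.1-fold lower ratio. Leaving out single arrays gave ras means from -1.73 to -0.90 and primary means from -3.99 to -2.56. In ras keratinocytes Defb1 had the 167th lowest mean of 8905 features, and on single arrays it was the 184th, 5952nd, 97th and 189th lowest. In primary keratinocytes a single feature had a lower mean than Defb1, and its single-array places were 152nd, 32nd and 13th.

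**Figure D1:**
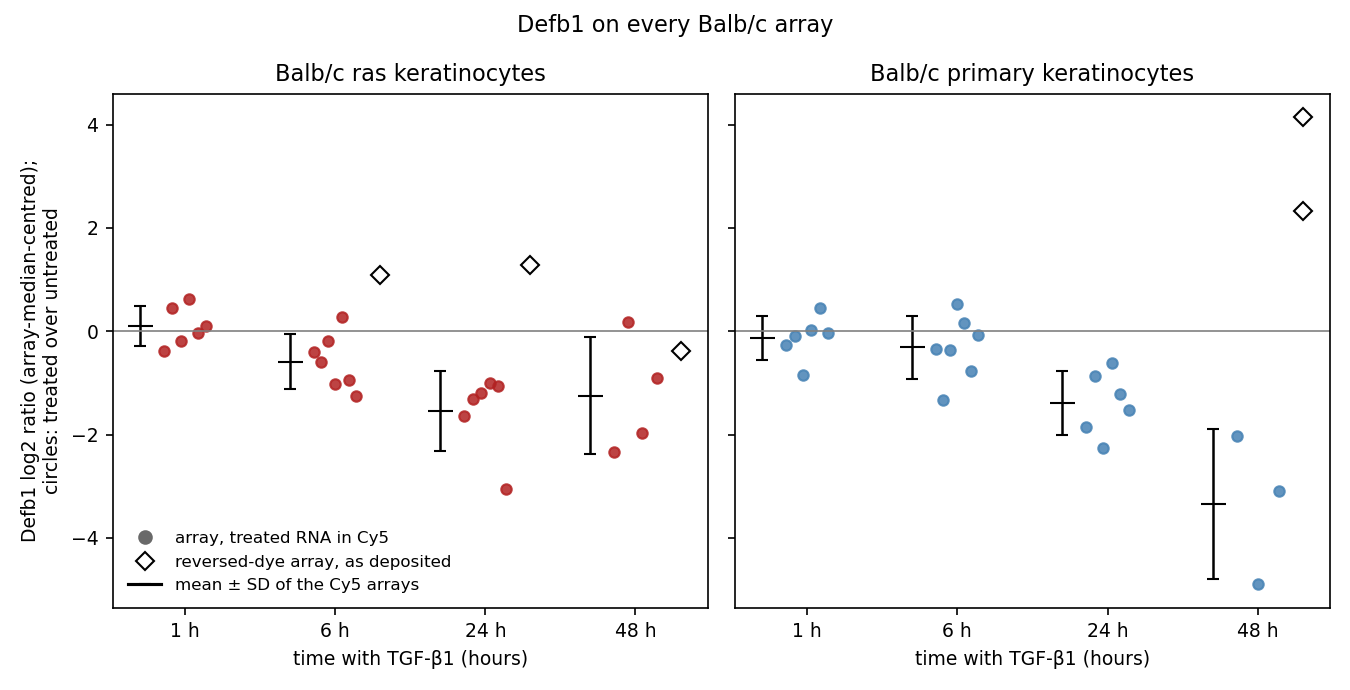
Defb1 log2 ratio, centred on each array's median, against hours with TGF-β1 in Balb/c ras (left) and primary (right) keratinocytes, with filled circles for single arrays with treated RNA in Cy5, black bars for their mean ± SD, and open diamonds for reversed-dye arrays with the sign as deposited. All circles at 24 h lie below 0 in both panels, and at 48 h the primary circles reach -4.90 while 1 ras circle lies at 0.18.

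The change between neighbouring times was set against the spread between arrays. In ras keratinocytes the mean at 6 h was 0.69 below that at 1 h (pooled SD 0.46), the mean at 24 h was 0.95 below that at 6 h (pooled SD 0.67), and the mean at 48 h was 0.29 above that at 24 h (pooled SD 0.97). In primary keratinocytes the 6 h mean was 0.18 below the 1 h mean (pooled SD 0.53). The steps to 24 h, 1.08 lower with a pooled SD of 0.61, and to 48 h, 1.95 lower with a pooled SD of 1.11, were larger than the spread. Array ranges of neighbouring times overlapped at each of these steps.

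**Figure D2:**
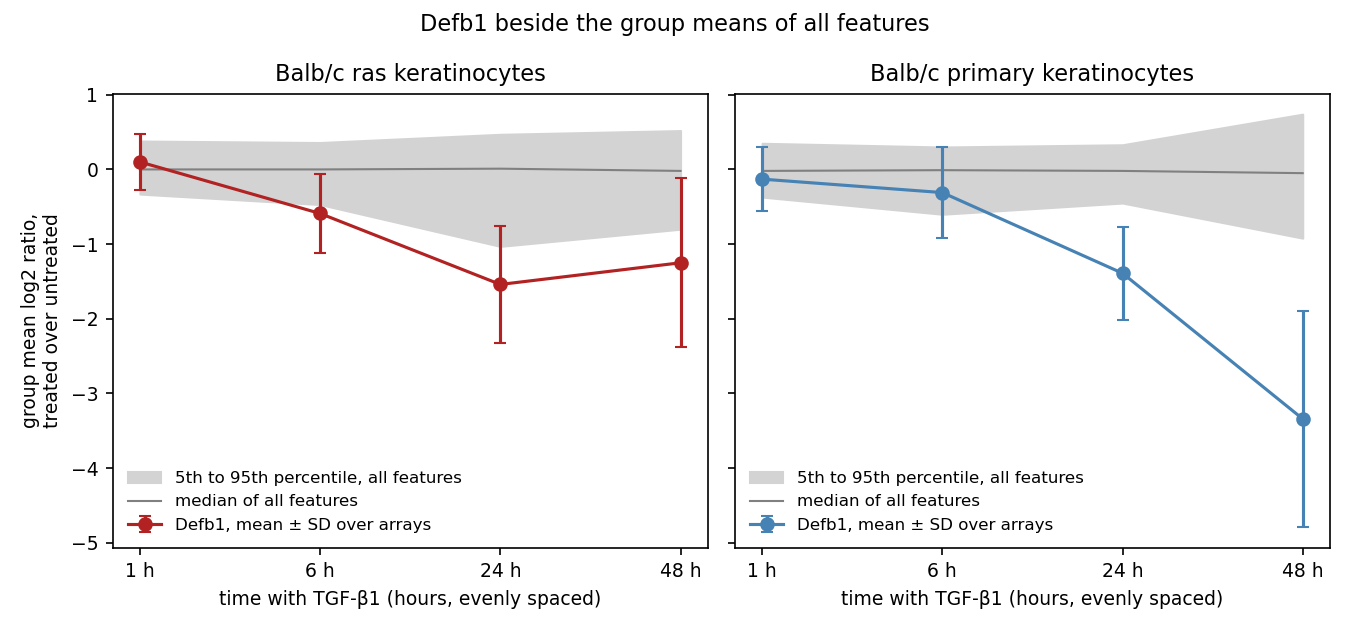
Mean log2 ratio of Defb1 (points, with SD over arrays as bars) against hours with TGF-β1 in Balb/c ras (left) and primary (right) keratinocytes, over the 5th to 95th percentile of the group means of all 8905 features (grey) and their median (line). Defb1 is inside the grey band at 1 h and below it at 24 and 48 h, with the widest gap in primary keratinocytes at 48 h, where the band ends at -0.92.

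In the order of the 8 group means, primary keratinocytes at 48 h came lowest at -3.34, followed by ras at 24 h, primary at 24 h, ras at 48 h, ras at 6 h, primary at 6 h, primary at 1 h and ras at 1 h. The gap between the lowest group and the next, 1.79, was larger than their pooled SD of 1.16, although their array ranges overlapped. No other neighbours in this order differed by more than their pooled SD.

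The ratios in ras and primary keratinocytes were then compared at each time. Ras minus primary was 0.22 (standard error of the fit 0.40) at 1 h, -0.28 (0.37) at 6 h, -0.15 (0.40) at 24 h and 2.08 (0.53) at 48 h. The difference at 48 h was the 35th highest of 8905 features. Defb1 was chosen by these same ratios, so the standard errors are given as a description and are no test. Every array has a mAdb experiment ID in its label, and arrays were also compared within ranges of IDs that share their first 2 digits. At 48 h the ras value was above the primary value in all 3 ranges: a mean of -1.08 over 2 arrays against -2.02 for IDs starting with 39, -1.96 against -4.90 for 40, and -0.90 against -3.09 for 46. Within the IDs starting with 39 the 2 ras arrays lay on both sides of the primary array, at -2.33 and 0.18. At 24 h ras was higher in 2 ranges and lower in 2, with differences from -1.55 to 0.87. At 6 h ras was higher in 1 range and lower in 4, and at 1 h it was higher in 3 and lower in 1. The contrast at 48 h rested on 4 and 3 arrays. Leaving out each in turn gave 1.30 to 2.74, the lowest without primary replicate 2.

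On 5 Balb/c arrays the dyes were reversed, and their deposited sign is not explained in the sources used here. As deposited, Defb1 was 1.09 on the ras array at 6 h, 1.28 on the ras array at 24 h and -0.39 on the ras array at 48 h, against 4.15 and 2.33 on the primary arrays at 48 h. The array of the same group with the nearest experiment ID gave -1.02, -1.0 and -0.90 for these ras arrays, and -4.90 and -3.09 for these primary arrays. Defb1 therefore had a similar size and the opposite sign on 4 of the 5. A check chosen after the data were seen took, for each group, the 50 features with the smallest p among those called on the Cy5 arrays. Of these 50, the sign was opposite on the reversed array for 50 at ras 6 h, 39 at ras 24 h, 24 at ras 48 h, and 49 and 42 at primary 48 h. The ras array at 48 h, where Defb1 had the same sign as its neighbour, was the array with 24 of 50. With the reversed arrays as deposited the primary mean at 48 h was -0.71 and ras minus primary -0.37. With their sign turned, the primary mean was -3.30 and the difference 2.37.

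The Smad3 arrays asked whether the response needs Smad3, the signalling protein that is deleted in the Smad3-/- cells. There was 1 array of the Cy5 orientation per genotype and cell type, so no spread is known and no test was made. Defb1 was 0.75 in Smad3-/- ras keratinocytes against -0.22 in Smad3+/+ ras keratinocytes, a difference of 0.97. It was 0.76 in Smad3-/- primary keratinocytes against -1.23 in Smad3+/+ primary keratinocytes, a difference of 1.98. In both kinds of cell the knockout array of this orientation was above 0 and the wild-type array below it. The difference was the 289th highest of 8905 features in ras and the 67th highest in primary keratinocytes, so 3.23% and 0.741% of features had a higher one. Reversed-dye arrays existed only for the knockouts, where Defb1 was 0.28 in ras and 0.17 in primary keratinocytes as deposited, and -0.28 and -0.17 with the sign turned. With the sign turned, the second knockout array was below 0 in both kinds of cell, and in ras it was close to the wild-type array at -0.22. Those 2 arrays correlated with the other array of their group at r = 0.412 and 0.482 over all features. The reversed Balb/c arrays ran from -0.0655 to 0.129, but against the mean of several Cy5 arrays, so these r are not like for like. The Smad3+/+ ras array, at -0.22, was within the range of the Balb/c ras arrays at 48 h, and the Smad3+/+ primary array, at -1.23, was above all 3 Balb/c primary arrays. Not every Balb/c response at 48 h was repeated on the Smad3+/+ arrays, which limits the genotype comparison. Of genes described below, Sprr2a1 read 0.45 in ras and 0.33 in primary keratinocytes, against Balb/c means of -2.23 and -2.33. Ly6d read -0.55 and 1.07, against -1.25 and -2.85. Col4a2 kept the Balb/c sign, at 0.67 and 0.98 against 0.83 and 1.55. Strain and array series cannot be told apart in these comparisons.

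**Figure D3:**
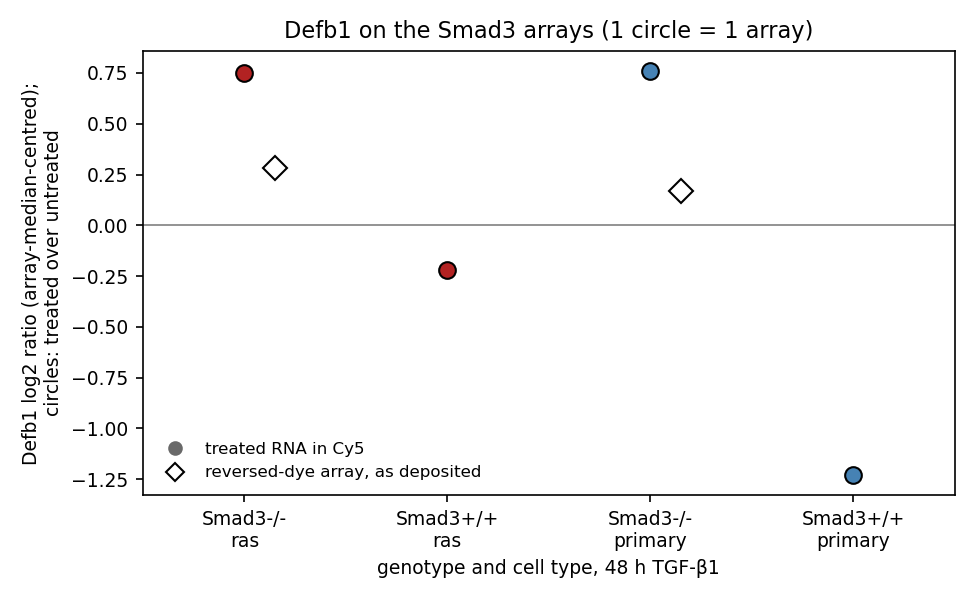
Defb1 log2 ratio, centred on each array's median, after 48 hours of TGF-β1 in Smad3-/- and Smad3+/+ keratinocytes, with ras cells in red and primary cells in blue. Circles are arrays with treated RNA in Cy5, diamonds are reversed-dye arrays as deposited, and there is 1 circle per group, at 0.75, -0.22, 0.76 and -1.23 from left to right.

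The probe for Smad3 itself does not check the deletion, because a ratio of treated over untreated knockout cells says nothing of the level in wild-type cells. It read -0.68 in Smad3-/- ras against -0.31 in Smad3+/+ ras, and -2.79 in Smad3-/- primary against -0.83 in Smad3+/+ primary keratinocytes. Tgfb1, the gene of the ligand, read 5.69 in Smad3-/- ras against 0.26 in Smad3+/+ ras, and -0.75 in Smad3-/- primary against -0.38 in Smad3+/+ primary keratinocytes. The reversed-dye knockout arrays read -1.31 in ras and -3.92 in primary keratinocytes for Tgfb1 as deposited, or 1.31 and 3.92 turned, so the value of 5.69 was not repeated under either sign. In the Balb/c responses neither Smad3 nor Tgfb1 passed the test at any time.

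Genes whose ratios followed Defb1 across the 45 Balb/c arrays of the Cy5 orientation were ranked by Pearson's r. The arrays share probes, protocol and possibly untreated RNA, so r is a description. Over 6794 genes the median r was 0.02, with a 5th percentile of -0.44 and a 95th of 0.39. The 8 highest were Zfp185 (0.77), an actin-associated LIM protein, Tmem54 (0.74), Ly6d (0.73), a GPI-anchored surface protein of stratified epithelia, Lgals7 (0.70), the galectin of such epithelia, Mex3d (0.69), an RNA-binding protein, Cdh13 (0.68), a cadherin without a cytoplasmic domain, Serpinb5 (0.66), also called maspin, and Rxra (0.65), a nuclear receptor that pairs with the vitamin D and retinoic acid receptors. The 4 lowest were Col4a2 (-0.79), a chain of basement membrane collagen, Ccng1 (-0.78), a cyclin induced by p53, Crabp1 (-0.76), a cytosolic retinoic acid binder, and Mllt11 (-0.75).

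Ly6d resembled Defb1 in size at 24 and 48 h. In ras keratinocytes at 6 h it did not: Ly6d was above 0 on 7 of 7 arrays, where the Defb1 mean was -0.59. Its means were 0.18, 0.35, -1.47 and -1.25 in ras keratinocytes at 1, 6, 24 and 48 h, and 0.09, 0.01, -1.36 and -2.85 in primary keratinocytes. At 48 h it read -1.11, -1.96, -1.56 and -0.38 on the ras arrays and -2.49, -4.13 and -1.93 on the primary arrays. Primary replicate 2 was the lowest array for Ly6d, as it was for Defb1. On the Smad3 arrays of the Cy5 orientation the 2 genes differed in primary keratinocytes. Ly6d read 1.60 in Smad3-/- and 1.07 in Smad3+/+ primary cells, where Defb1 read 0.76 and -1.23. In ras cells Ly6d read 0.20 in Smad3-/- and -0.55 in Smad3+/+ cells, where Defb1 read 0.75 and -0.22. Zfp185 averaged 0.37 in ras and -0.07 in primary keratinocytes at 1 h, and -1.02 in ras and -2.03 in primary keratinocytes at 48 h. Its primary arrays gave -1.62, -2.27 and -2.20 and lay apart from all ras arrays but replicate 3, which read -1.76. All 8 alike genes were lower after treatment in primary keratinocytes at 48 h and all 4 opposite genes higher, which follows in part from how they were chosen. The gap between ras and primary keratinocytes at 48 h was part of the pattern they were chosen to follow, so it is given with no test: ras minus primary was 1.49 for Lgals7 and -1.71 for Crabp1.

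**Figure D4:**
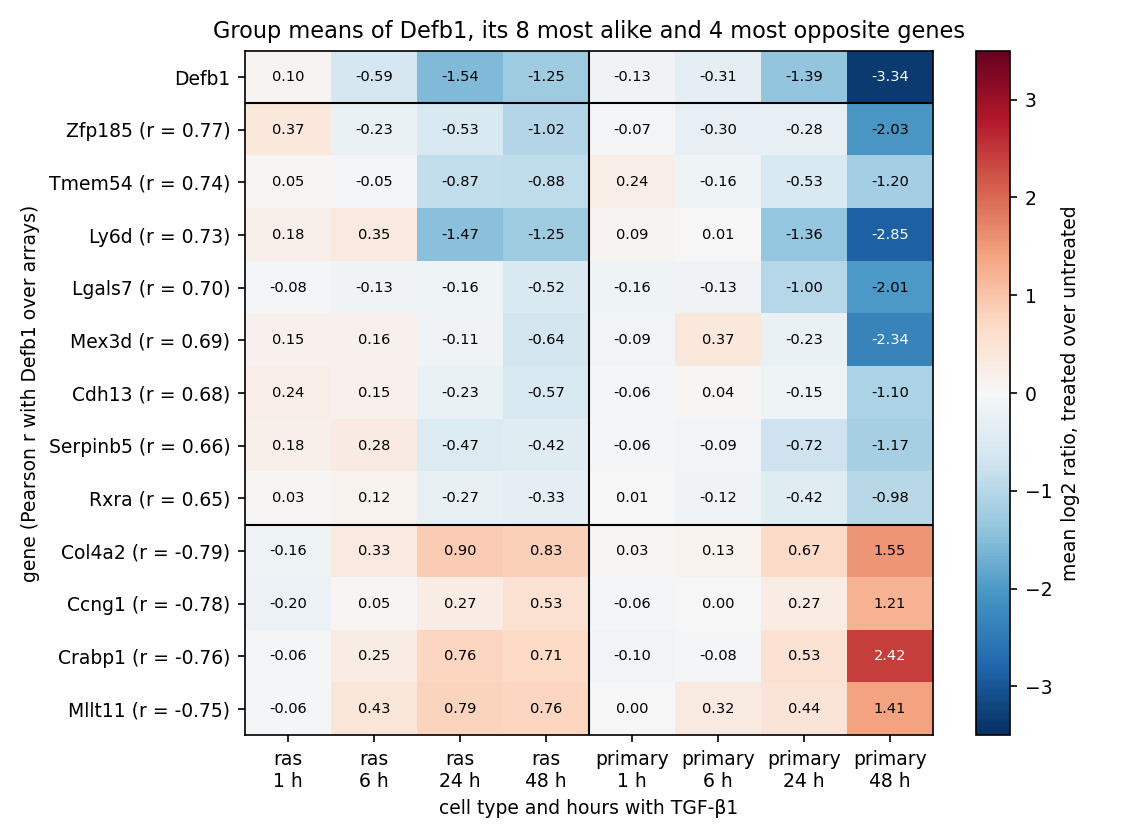
Mean log2 ratio, treated over untreated, of Defb1 (top), the 8 genes with the highest and the 4 with the lowest Pearson r to Defb1 over 45 Balb/c arrays, by cell type and hours (columns), with blue for lower and red for higher in treated cells. The last column, primary keratinocytes at 48 h, holds the lowest mean of every alike gene, from -0.98 for Rxra to -2.85 for Ly6d, and the highest mean of each opposite gene.

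Other defensins on the array were α-defensin genes, which in mice are known from Paneth cells of the gut. Defa24, Defa31 and Defa35 each had a probe, and none passed the test in any of the 8 responses. In ras keratinocytes 0.0786%, 1.73%, 10.5% and 3.5% of all features passed at 1, 6, 24 and 48 h. In primary keratinocytes the shares were 0.0112%, 0.0112%, 1.36% and 8.6%. The means of the 3 genes at 48 h were -0.25, -0.15 and -0.47 in ras keratinocytes, and -0.79, 0.12 and -0.16 in primary keratinocytes. The lowest adjusted p among their ratios was 0.0553, for Defa35 in ras keratinocytes at 24 h, where its mean was -0.53. These genes are also the 3 measured genes next before Defb1 in RefSeq order on chromosome 8. The 3 measured genes after it were Mrps31, of the mitochondrial ribosome, Slc20a2, a phosphate transporter, and Ikbkb, a kinase that activates NF-κB. Of the 6 neighbours 5 passed in no response, beside the same shares of all features. Slc20a2 rose in primary keratinocytes at 48 h, by 0.86 (adjusted p = 0.000452), opposite to Defb1, where 5.11% of features rose. The probe's sequence was not used here, and whether it also binds RNA of related defensins was not tested.

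A list of 53 antimicrobial peptides and proteins was set beside Defb1, and 22 of them were measured. Few of these passed, and none fell in primary keratinocytes. At 1 h no member passed in ras or primary keratinocytes, where 0.0786% and 0.0112% of all features did, and at 6 h none passed in primary keratinocytes, against 0.0112% of features. At 6 h 1 member fell in ras keratinocytes, where 0.371% of all features fell and 1.73% passed in either direction. This was Ccl20, a chemokine with antimicrobial activity, at -1.27 ± 0.78 (SD, n = 7, adjusted p = 0.00554), which was below 0 on 7 of 7 arrays and missed the threshold without replicate 8. At 24 h 1 member rose in each kind of cell, where 3.84% of features rose in ras and 0.348% in primary keratinocytes (10.5% and 1.36% in either direction). At 48 h 1 member rose and 1 fell in ras keratinocytes, against 1.9% and 1.61% of features, or 3.5% in either direction. In primary keratinocytes 1 rose, against 5.11% of features, or 8.6% in either direction. The list's median at 48 h was -0.28 in ras and -0.37 in primary keratinocytes, beside -0.02 and -0.05 over all features.

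The member that rose each time was Lyz2, the lysozyme of macrophages and other myeloid cells. At 48 h it read 1.24, 0.72, 1.52 and 0.35 on the ras arrays and 2.74, 3.12 and 1.89 on the primary arrays, so the groups did not overlap. Its means were 0.54 in ras and 0.91 in primary keratinocytes at 24 h (adjusted p = 0.0422 and 0.00197), and 0.96 in ras and 2.59 in primary keratinocytes at 48 h (adjusted p = 0.00893 and 1.77e-09). Lyz2 thus moved opposite to Defb1, with r = -0.74 over the 45 arrays. Its rise was larger in primary keratinocytes at 48 h: ras minus primary was -1.63 (adjusted p = 0.0206), where 0.168% of features passed as lower and 0.202% in either direction. That call was lost without ras replicate 2 or 4 or primary replicate 2. The ras calls of Lyz2 were lost without replicate 1, 2, 3 or 6 at 24 h and without replicate 1 or 3 at 48 h. The member that fell at 48 h in ras keratinocytes was Lcn2, lipocalin 2, which binds bacterial siderophores. It read -1.40, -0.83, -1.25 and -0.49 on the ras arrays, a mean of -0.99 (adjusted p = 0.00484, or 0.0815 without replicate 1).

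Defb1 stood lower than any member of this list in primary keratinocytes at 48 h. The lowest members there were Pla2g5 at -1.13 and Ccl20 at -1.12, and neither passed. Slpi, a secreted protease inhibitor with antimicrobial activity, averaged -0.84 there and Camp, the cathelicidin gene, -0.37, and neither passed. S100a8 and S100a9, the calprotectin subunits, averaged -0.22 and -1.16 in ras and 0.25 and -0.10 in primary keratinocytes at 48 h, and neither passed. The median r with Defb1 over the 22 members was 0.15, and the highest was 0.41.

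**Figure D5:**
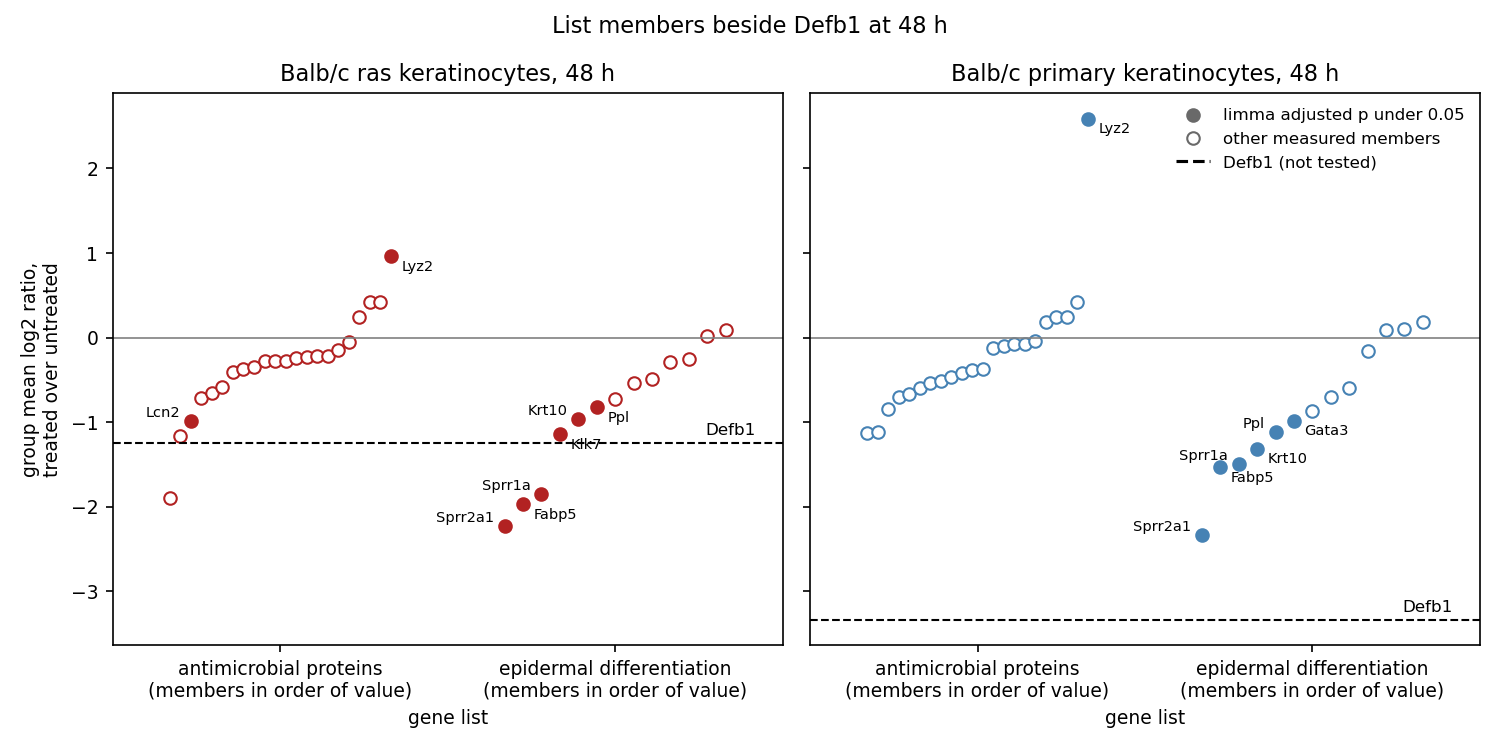
Mean log2 ratio at 48 h of the 22 measured antimicrobial genes and the 13 measured epidermal differentiation genes (circles, in order of value) in Balb/c ras (left) and primary (right) keratinocytes, with filled and named circles at a limma adjusted p under 0.05 and the dashed line at the Defb1 mean. Defb1, at -3.34, lies below every circle in primary keratinocytes, and at -1.25 it lies among them in ras keratinocytes.

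Pattern recognition receptors and NF-κB genes, which switch on many inducible defence peptides, numbered 13 measured of 37. In ras keratinocytes Nod1, a sensor of bacterial peptidoglycan, averaged -1.97 ± 3.91 at 24 h (SD, n = 6, adjusted p = 0.0476), where 6.67% of features fell, and that value rested on an array at -9.90. Nfkbia, the NF-κB inhibitor, rose by 0.64 in ras keratinocytes at 48 h (adjusted p = 0.0393), where 1.9% of features rose and 3.5% passed in either direction. Both calls were lost without replicate 1 or 3. No member passed in primary keratinocytes at any time, where 0.0112%, 0.0112%, 1.36% and 8.6% of features passed at 1, 6, 24 and 48 h. The list's median at 48 h was 0.07 in ras and -0.01 in primary keratinocytes.

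Of 12 genes reported to regulate human DEFB1 or to reduce its peptide, 8 were measured. Rxra fell in primary keratinocytes at 48 h, by 0.98 (adjusted p = 0.00401, lost without replicate 2), where 3.49% of features fell. Hif1a, a hypoxia factor, averaged -2.25 ± 3.21 in ras keratinocytes at 48 h (SD, n = 4, adjusted p = 0.0253), where 1.61% of features fell. Its value rested on an array at -7.02, and the call was lost without that array, replicate 1. Vdr, the vitamin D receptor, averaged -0.02 in ras and -0.35 in primary keratinocytes at 48 h, and Txn1, the thioredoxin that reduces the human peptide, 0.39 and 0.46, and neither passed.

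Epidermal differentiation genes tracked Defb1 more closely, with a median r of 0.47 over 13 measured of 36 and a highest of 0.64. Not all did: r was -0.05 for Tgm3, 0.07 for Klk5 and 0.12 for Flg. In primary keratinocytes at 48 h Tgm3, Klk5 and Flg averaged 0.09, 0.10 and 0.19, above 0. In ras keratinocytes 5 of the 13 fell at 24 h and 6 at 48 h, against 6.67% and 1.61% of all features. In primary keratinocytes 4 fell at 24 h and 6 at 48 h, against 1.01% and 3.49%. The list was chosen with earlier results of these data known, so these counts are a description and no independent test. No member rose, and none passed at 1 or 6 h, where 0.0786% and 1.73% of features passed in ras and 0.0112% and 0.0112% in primary keratinocytes. Sprr2a1, a small proline-rich protein of the cornified envelope, had the lowest mean of the list at 48 h in both kinds of cell. At 48 h it read -1.76, -3.07, -1.80 and -2.27 on the ras arrays and -1.80, -3.15 and -2.03 on the primary arrays, which covered the same range. Its means were -2.23 in ras and -2.33 in primary keratinocytes (adjusted p = 2.10e-08 and 4.72e-08). At 24 h its fall was smaller in ras, -1.13 against -2.45, and ras minus primary was 1.32 (adjusted p = 0.0228), where 0.0337% of features passed as higher and 0.0449% in either direction. That call was lost without any 1 of 8 arrays, ras replicates 1, 2, 3, 5 and 7 and primary replicates 1, 3 and 5.

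Fabp5, a fatty acid carrier of the upper epidermis, averaged -1.97 in ras and -1.53 in primary keratinocytes at 48 h (adjusted p = 2.81e-06 and 0.000265). Sprr1a, another envelope precursor, averaged -1.85 and -1.49 (adjusted p = 0.000249 and 0.00245), and Ppl, periplakin, -0.82 and -1.12 (adjusted p = 0.00255 and 6.05e-05). Krt10, a keratin of the suprabasal layers, averaged -0.96 and -1.31 (adjusted p = 0.0398 and 0.00555). Klk7, a protease of the cornified layer, fell in ras at 24 and 48 h, by 0.84 and 1.14, and Gata3, an epidermal transcription factor, fell in primary keratinocytes at 48 h, by 0.98. On the Smad3 arrays Sprr2a1 read 0.55 in Smad3-/- ras against 0.45 in Smad3+/+ ras, and 0.50 in Smad3-/- primary against 0.33 in Smad3+/+ primary keratinocytes. Fabp5 read 0.51 in Smad3-/- ras against -0.48 in Smad3+/+ ras, and 0.39 in Smad3-/- primary against -0.12 in Smad3+/+ primary keratinocytes. On these single Cy5 arrays Fabp5 was thus above 0 in knockout and below 0 in wild-type cells, as Defb1 was, while Sprr2a1 was above 0 in all 4. On the reversed-dye knockout arrays Defb1 was below 0 with the sign turned, at -0.28 in ras and -0.17 in primary keratinocytes. Those arrays are not given here for Fabp5 and Sprr2a1. The primary 48 h calls of Fabp5, Sprr1a, Krt10 and Gata3 were lost without replicate 2, that of Krt10 also without replicate 1. The ras calls of Krt10 at 48 h were lost without replicate 1 or 3, and those of Klk7 without replicate 1, without replicate 7 at 24 h or without replicate 4 at 48 h.

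Markers of cell types were read beside Defb1, as ratios only, so they do not show whether a cell type was present. In ras keratinocytes at 48 h 1 of 4 measured keratinocyte markers fell, Krt10, none of 7 fibroblast markers passed, and 1 of 11 immune cell markers rose, Lyz2, where 1.9% of all features rose and 1.61% fell (3.5% in either direction). In primary keratinocytes at 48 h, where Defb1 was lowest, 2 of the 4 keratinocyte markers fell, Krt10 and Trp63, a transcription factor of basal keratinocytes, at -1.01 (adjusted p = 0.000807), where 3.49% of all features fell, 5.11% rose and 8.6% passed in either direction. Krt5 averaged 0.17 there, above 0 on 3 of 3 arrays, and Itgb4 averaged -0.23, and neither passed. Of the fibroblast markers 2 rose there, Mfap5 by 1.77 and Col1a2 by 1.83 (adjusted p = 1.88e-07 and 0.00875). Of the immune cell markers 3 rose, Lyz2, Tyrobp by 1.01 and Fcer1g by 0.77 (adjusted p = 0.00262 and 0.00658), and 1 fell, Cd8a at -1.75 ± 3.07 (SD, n = 3, adjusted p = 0.0235). The Tyrobp, Fcer1g and Cd8a calls were lost without replicate 2, and the Col1a2 call without replicate 1 or 2. Ras minus primary at 48 h passed for Mfap5, at -1.44 (adjusted p = 0.0166), a call lost without ras replicate 2 or 4 or primary replicate 2. At 24 h in ras keratinocytes 3.84% of all features rose and 6.67% fell (10.5% in either direction). Itgb4 rose there by 0.51 and Itgam averaged -2.03 (adjusted p = 0.0411 and 0.0438), the Itgam value with an array at -9.13. Neither held without every array: the Itgb4 call was lost without replicate 1, 2, 3 or 7, and the Itgam call without replicate 1 or 6. Of 2 melanocyte and 3 endothelial markers none passed in any response. In ras keratinocytes 0.0786%, 1.73%, 10.5% and 3.5% of all features passed at 1, 6, 24 and 48 h. In primary keratinocytes the shares were 0.0112%, 0.0112%, 1.36% and 8.6%. At 48 h the median ratio was 0.03 in ras and -0.62 in primary keratinocytes over the keratinocyte markers, 0.24 and 0.27 over the fibroblast markers, and -0.18 and -0.08 over the immune cell markers. The markers were chosen with earlier results of these data known, so their counts are a description. The part of these marker changes in the Defb1 ratio was not tested.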

How the data were processed

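The authors deposited 1 table of log2 ratios for 56 two-channel arrays of total RNA, with no missing value, and this table was the start. That the values are log2, and that they run treated over untreated, was read from the values and the channel order and is not stated; for scanning, background correction and normalization, nothing was given in the sources used here. Probes were named through the platform annotation, and symbols were updated by Entrez ID to RefSeq names: 7486 of 9596 probes had 1 symbol (7395 matched by Entrez ID), 483 several and 1627 none. The median of every array was subtracted and probes of a gene were averaged, which gave 8905 features. Defb1 had 1 probe.

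The 49 arrays with treated RNA in Cy5 were fitted together with limma 3.58.1 (R 4.3.3; lmFit and eBayes), a mean per group and ras minus primary at each time, two-sided. P-values were adjusted by Benjamini-Hochberg over all 8905 features, with a threshold of 0.05, and no low-value filter. "Rose", "fell" and "passed" refer to this test. The script was tested on simulated data. The series lists several arrays per sample, so p-values measure the spread between arrays, which may be technical, and precision is set by how many arrays there are. Folds are 2 to the power of a mean log2 ratio.

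Named genes were Defb1, Smad3, Tgfb1, the 8 genes most and 4 least like Defb1, the called members of each list (up to 6) and the defensins; Skil and Smad7, the neighbours and some list members that did not pass were chosen afterwards. The gene, the lists and the markers were chosen with earlier results of these data known. Alternatives covered centring, scale, dye-reversed arrays, spread, weights, blocks, a cut on large values, medians, likeness measures and left-out arrays.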

Additional observations from a re-analysis of the deposited data

Results flagged for a closer look

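Among 32 sets of 4 to 7 arrays, each of 1 named gene in 1 group, 6 had an array far from the others. This count cannot be set against a chance rate. Nod1, Hif1a and Itgam were named for calls that were lost without the outlying array. Defb1 was -3.06 on replicate 7 of ras keratinocytes at 24 h, where the next lowest array read -1.64. On the ras arrays at 24 h, Itgam was -9.13 on replicate 1, Nod1 was -9.90 on replicate 3, and Sprr1a was -0.16 on replicate 6. Hif1a was -7.02 on replicate 1 of ras keratinocytes at 48 h. Lyz2 was 1.98 on replicate 6 of primary keratinocytes at 24 h.

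The response differed between ras and primary keratinocytes by limma's test of the difference for 5 named genes. Of all features 0.0449% passed this test at 24 h and 0.202% at 48 h. Ras minus primary was 1.32 for Sprr2a1 at 24 h, and at 48 h it was -1.71 for Crabp1, 1.49 for Lgals7, -1.63 for Lyz2 and -1.44 for Mfap5. Crabp1 and Lgals7 were chosen for following Defb1, whose pattern holds this gap, so their difference is no independent test. Sprr2a1, Lyz2 and Mfap5 came from lists chosen with earlier results of these data known. Each of the 5 calls was lost when some single array was left out. On the Cy5 arrays Defb1 was higher in Smad3-/- than in Smad3+/+ cells by 0.97 in ras and by 1.98 in primary keratinocytes. The genotypes had opposite signs there, and the difference was not tested because each group had 1 array of this orientation. The second, reversed-dye knockout arrays read 0.28 in ras and 0.17 in primary keratinocytes as deposited. With the sign turned they read -0.28 and -0.17, the same sign as the wild-type arrays.

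Reversed-dye arrays stood outside the comparisons and carried a Defb1 signal. As deposited it was 1.09 in ras keratinocytes at 6 h, 1.28 at 24 h and -0.39 at 48 h, against 4.15 and 2.33 in primary keratinocytes at 48 h.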

How the results depend on the processing

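Of 66 Defb1 values recomputed under other settings, 64 moved by less than the spread between arrays. All 90 with an array left out did so too. Leaving out 1 array cannot shift a group mean by more than the SD of its group, so no conclusion is drawn from that count. The primary mean at 48 h ran from -3.99 to -2.56 with single arrays left out. With reversed-dye arrays as deposited, the primary mean at 48 h was -0.71 and ras minus primary at 48 h was -0.37, by construction, since 2 positive arrays join 3 negative ones. With the replicate block, ras minus primary for Defb1 was 0.22, -0.11, 0.02 and 2.17 at 1, 6, 24 and 48 h, and 0, 0, 4 and 14 features differed. Same-numbered arrays correlated at -0.23 to 0.39, over 0.1 in 5 of 19 pairs, so the numbers are not taken to pair samples. Of the 8 most alike genes, 3 were kept by Spearman's rho, 1 by group means and 4 with arrays scaled to 1 spread.

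Counts of called features depended on the setting, and the cause was not tested. The fit without changes called 7, 154, 936 and 312 features in ras and 1, 1, 121 and 766 in primary keratinocytes at 1, 6, 24 and 48 h, and 0, 0, 4 and 18 for ras minus primary. At an unadjusted p under 0.05 there were 371 and 409 for ras minus primary at 1 and 6 h. Only counts that moved by over 1.5 times follow. Array weights gave 91, 1203 and 562 in ras at 1, 6 and 24 h, 4, 16 and 835 in primary at 1, 6 and 24 h, and 64 and 135 for ras minus primary at 6 and 24 h. Scaled arrays gave 17, 378, 300 and 178 in ras, 2, 18, 392 and 423 in primary, and 1, 1 and 0 for ras minus primary at 6, 24 and 48 h. The ID range as a random block gave 173 in ras at 48 h, 0 in primary at 6 h and 31 for ras minus primary at 48 h. Groups fitted alone, with fewer arrays, gave 0, 3 and 0 in ras at 1, 24 and 48 h, 0, 0, 10 and 0 in primary, and 1, 0 and 0 for ras minus primary at 6, 24 and 48 h. Reversed arrays as deposited gave 2, 0, 464 and 125 in ras, 0, 0 and 24 in primary at 1, 6 and 24 h, and 0 and 0 for ras minus primary at 24 and 48 h. Turned, they gave 413 and 71 in ras at 24 and 48 h, 0 in primary at 1 h, and 0 and 40 for ras minus primary at 24 and 48 h. Without the 2 arrays of widest spread, chosen after seeing the data, there were 240, 316 and 484 in ras at 6, 24 and 48 h, 0 in primary at 6 h, and 1 and 30 for ras minus primary at 24 and 48 h. Leaving out single arrays gave 0 to 8, 62 to 181, 273 to 1067 and 54 to 491 in ras, 0 to 1, 0 to 9, 60 to 131 and 279 to 763 in primary, and 1 to 5 and 1 to 80 for ras minus primary at 24 and 48 h.

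Antimicrobial gene calls, 0, 1, 1 and 2 in ras and 0, 0, 1 and 1 in primary keratinocytes, became 1 and 2 in ras at 1 and 24 h and 6 in primary at 24 h with array weights. They became 0 in ras and 4 in primary at 24 h with scaled arrays, 0 in ras at 24 h with the random block, and 2 in primary at 24 h without centring. Groups fitted alone left 0 in ras and 0 in primary at 24 and 48 h. Reversed arrays as deposited gave 0, 0 and 1 in ras at 6, 24 and 48 h and 0 and 2 in primary at 24 and 48 h, and turned they gave 0 and 0 in ras at 24 and 48 h. Without the 2 widest arrays there were 0 in ras and 3 in primary at 24 h. Single arrays left out gave 0 to 1, 0 to 2 and 0 to 2 in ras at 6, 24 and 48 h and 1 to 3 in primary at 24 h. Ras minus primary for Lyz2 at 48 h was -1.24 with scaled arrays, -0.16 with reversed arrays as deposited and -1.63 with groups fitted alone, all above the threshold (adjusted p = 0.0803, 1 and 0.788), and -1.97 to -1.36 with single arrays left out. A single Defb1 probe left nothing to compare between probes.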
